A study of Gallus gallus with 9 samples.

Results

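Semaphorins, ephrins, netrins and slits are the guidance cues that steer growing axons, vessels and migrating cells, and plexins, neuropilins, Eph receptors, UNC5 receptors and robos are the receptors that read them. All chicken genes on the array whose single symbol begins with SEMA, PLXN, NRP, EPHA, EPHB, EFNA, EFNB, ROBO, SLIT, NTN or UNC5 were taken, which gave 62 of the 13008 genes with 1 symbol on a chicken probe set. Each gene was read from the probe set with the highest mean over the 9 arrays. Of the 62 genes, 5 share only the letters of the rule (SLITRK1, SLITRK2, SLITRK4, SLITRK6 and UNC50), which leaves 57 guidance genes.

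The cells were preadipocytes, the precursors of fat cells, taken from the abdominal fat of laying hens and grown to confluence. They received an adipogenic cocktail that the labels call DMIOA together with 10 uM retinoic acid, DMIOA alone, or no treatment (control), with 3 biological replicates in each group. All groups shared the same serum-containing culture medium. The labels do not expand DMIOA and give no hen, culture or treatment time for a replicate, so how far the replicates are independent is not known. P-values set a group difference against the spread among these 9 samples only. A mark "(2)" closes the sample titles of the DMIOA and control groups but is missing in the retinoic acid group, and its meaning, which the labels do not give, cannot be told apart from retinoic acid.

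Many guidance cues repel. Class 3 semaphorins are secreted, and most bind neuropilins, which signal through A-type plexins. Plexins can also bind semaphorins directly. Ephrins are held at the cell surface and signal to Eph receptor tyrosine kinases on the neighbouring cell, slits signal through robos, and netrins attract through DCC and repel through UNC5 receptors. In adipose tissue of mouse or human several of these have been studied: SEMA3C as a protein secreted by fat cells, SEMA3E with its receptor PLXND1 and NTN1 in inflamed fat, and a fragment of SLIT2 in heat production.

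Levels are log2 GCRMA values, given for each array in the order of replicates 1, 2 and 3. A gene was tested when its probe set reached 5 on at least 3 arrays, and it was called when limma's Benjamini-Hochberg adjusted p-value, taken over the 12329 probe sets tested, was under 0.05. Between 30.9% and 31.3% of chicken probe sets reached 5 on each array. The labelled cell type was checked against markers: 11 of 12 fibroblast and preadipocyte genes reached 5 on every array, and 0 of 12 neural and glial genes did so on any. Endothelial genes were present, with CDH5 and ERG above 7 on every array and PECAM1 and CLDN5 at 5 or above on some, while the other 6 of 10 stayed under 5. Of 11 skeletal muscle genes, 1 reached 5 on the retinoic acid and DMIOA arrays and 2 on the control arrays, with summed log2 levels of 29.0 to 30.9, 29.6 to 32.1 and 35.4 to 37.2. The second of these, MYOM2, had 2.52, 2.56 and 1.92 with retinoic acid, 3.17, 1.89 and 2.31 in DMIOA, and 8.13, 8.07 and 5.56 in control, and its part in any guidance gene result was not tested. Of 20 macrophage and leukocyte genes, 1 to 4 reached 5 in replicates 1 and 2 of the 3 groups, against 10, 13 and 16 in replicate 3 of DMIOA plus retinoic acid, DMIOA and control. Retinoic acid replicates 1 and 2 were close to identical (r = 0.998 over chicken probe sets). CYP26A1, the retinoic acid-degrading enzyme gene that checks the treatment, stood at 12.23, 12.37 and 11.30 with retinoic acid, against 1.88, 2.04 and 1.87 in DMIOA and 1.80, 1.88 and 2.03 in control.

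Of the 62 genes, 16 reached 5 on all 9 arrays, 15 on some and 31 on none. All 7 plexins and both neuropilins were measured well enough to be tested, as were 6 of 12 Eph receptors, 2 of 3 slits and 2 of 3 UNC5 receptors. Of the 17 semaphorins, in contrast, 14 stayed under 5 on every array. In all, 28 genes were tested, 3 of which passed only through 1 group: PLXNA4 and ROBO2 through retinoic acid and PLXNB3 through control. UNC50 and SLITRK2 are among the 28, and neither was called in any comparison. A further 3 genes (SEMA3F, NTN1 and ROBO1) reached 5 on only 1 or 2 arrays and were not tested. The genes that never reached 5 lay between 1.13 and 4.90, and their presence cannot be judged from these values. In the RefSeq gene order of the GRCg7b assembly, SEMA3D, SEMA3A and SEMA3E are adjacent on chromosome 1, with 3 protein-coding genes between SEMA3E and SEMA3C. SEMA3D and SEMA3C, at the ends of this run, were above 6 on every array, and SEMA3A and SEMA3E in between were at most 3.53 and 2.85.

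**Figure D1:**
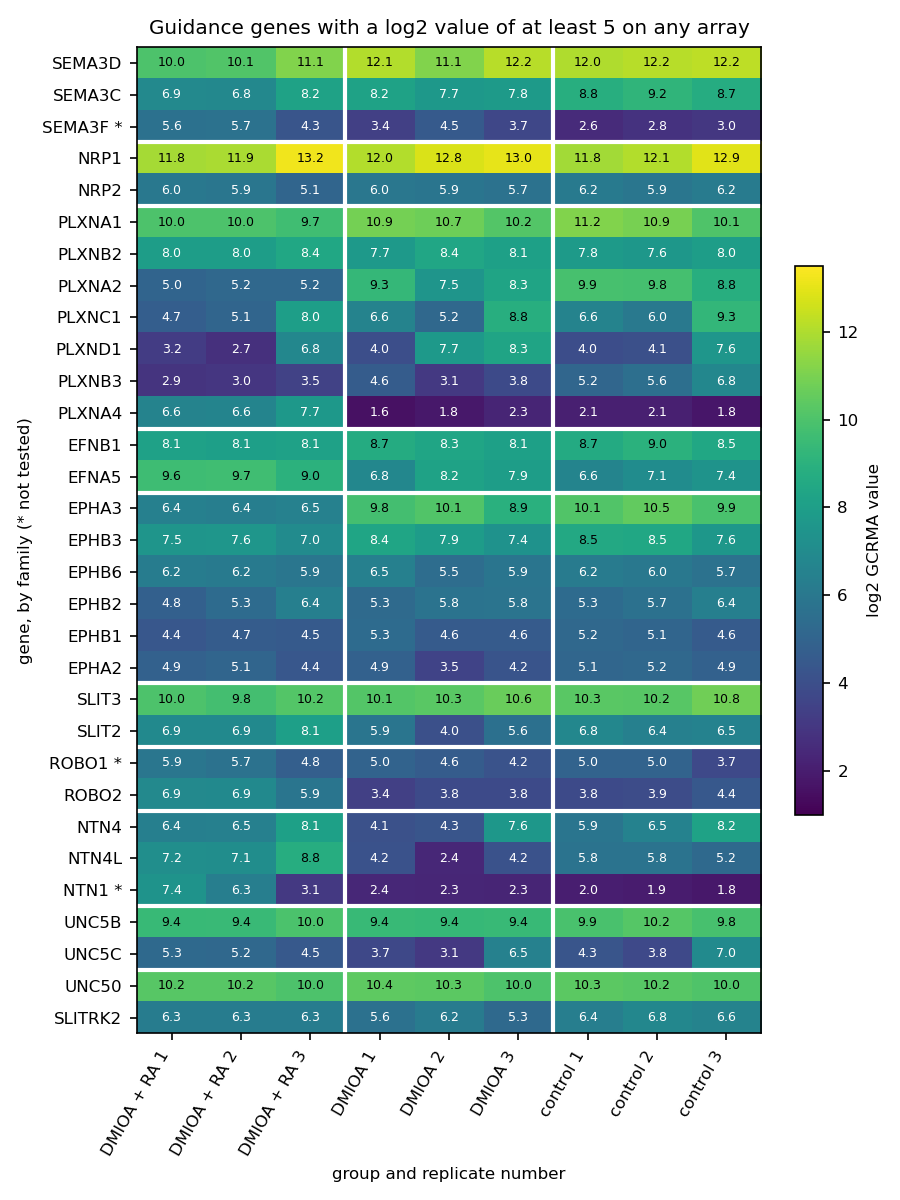
Log2 GCRMA value of the 31 genes, of the 62 taken by symbol, that reached 5 on any array, with genes grouped by family down the page and the 9 arrays across it, and an asterisk for the 3 genes that were not tested. PLXNA4 and ROBO2 stand above 5 in the retinoic acid columns only, EPHA3 and PLXNA2 are dimmest there, and PLXNC1 is brightest in replicate 3 of each group.

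With retinoic acid added to DMIOA, PLXNA4, ROBO2, NTN4L and EFNA5 rose and PLXNA2 and EPHA3 fell. These 6 of 28 tested genes are 21.4%, against 3.89% of all tested probe sets called in this comparison (2.12% higher and 1.77% lower). Without the 3 genes that had passed through 1 group, 4 of 25 were called (16.0%). Shares of all probe sets, here and below, keep those that passed through 1 group and count every tested probe set, not 1 per gene. In DMIOA plus retinoic acid against control, PLXNA4, ROBO2 and EFNA5 rose and PLXNA2, EPHA3, PLXNB3, SEMA3D and SEMA3C fell, which is 8 of 28 genes (28.6%) against 13.2% of all probe sets (6.74% higher and 6.42% lower), or 5 of 25 (20.0%) without the same 3 genes. With the replicate number as a block, 10 and 14 genes were called in these comparisons, against 10.8% and 28.8% of all probe sets. These counts, and those without replicate 3 below, include PLXNA4 and ROBO2, and against control also PLXNB3. All 3 had passed the filter through 1 group, so their part in these counts is no separate support. Of the 10 calls made with the block alone, that of EPHB3 against control held when any 1 array was left out, and the other 9 were each lost in 4 to 7 of the 9 fits that leave out 1 array (adjusted p up to 0.164). When replicate 3 of every group was left out, 11 and 13 were called, against 12.3% and 29.4%. The retinoic acid group in such fits, here and below, is replicates 1 and 2, which were close to identical. How far they are independent is not known, so the spread behind these p-values may be too small. The genes added were NTN4, UNC5C, PLXNA1, SEMA3C and SEMA3D against DMIOA and EFNB1, EPHB3, PLXNA1, UNC5B and UNC5C against control. With the block as well the counts were 9 and 12, for which no shares of all probe sets are given. Those counts therefore cannot be read as an excess. The filter over all 9 arrays was kept in these fits. Without replicate 3, UNC5C, like PLXNA4 and ROBO2, reached 5 on retinoic acid arrays only, so its calls rest on the group where it is high. The arrays of both groups lay apart in 6 genes that were higher and 4 that were lower with retinoic acid than in DMIOA, against 12.8% and 9.16% of all probe sets, and in 5 higher and 10 lower than in control, against 23.1% and 15.5%. Without SLITRK2 and UNC50 these counts were 5 and 4 against DMIOA and 5 and 9 against control. PLXNA4 and ROBO2 are among the higher genes in both comparisons, and PLXNB3 is among those lower than in control. These 3 genes had passed the filter on the arrays of 1 group alone, so the filter itself set them apart. The 2 retinoic acid comparisons share the retinoic acid arrays, so each gene's values in both are given side by side and not as separate evidence. The median log2 difference of the 28 genes was -0.15 against DMIOA and -0.34 against control, where the medians of all probe sets were 0.04 and 0.08. For the 26 genes without SLITRK2 and UNC50 the medians were -0.24 and -0.4. In RNA of whole cultures, fewer cells of a type and less RNA per cell cannot be told apart.

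DMIOA alone called 0 of the 28 genes against control with limma, with or without the replicate block (percent called over all probe sets, 0.146% and 1.29%). At an unadjusted p under 0.05 there were 8 genes, EPHA2, NTN4L, PLXNA2, PLXNB3, SEMA3C, SLIT2, SLITRK2 and UNC5B, all of them lower in DMIOA, against 11.6% of all probe sets in either direction and 5.68% lower. The median difference of the 28 genes was -0.34, where that of all probe sets was 0.02, and 23 of the 28 were below 0. In 6 genes all DMIOA arrays lay below all control arrays, and in 0 all lay above, against 7.34% and 8.21% of all probe sets. PLXNB3 is 1 of these 6, and it had passed the filter through control arrays alone, so the filter itself placed it below control. Its unadjusted p rests on the same choice. Without SLITRK2 and UNC50, 5 genes lay below control and 7 had an unadjusted p under 0.05 in limma. None of these differences passed the adjusted test. Without replicate 3 of every group 1 gene, NTN4, was called, against 1.4% of all probe sets. With the block as well 0 were called in limma. In that fit 10 had an unadjusted p under 0.05, but no share of all probe sets is given for it, so the count cannot be read as an excess.

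**Figure D2:**
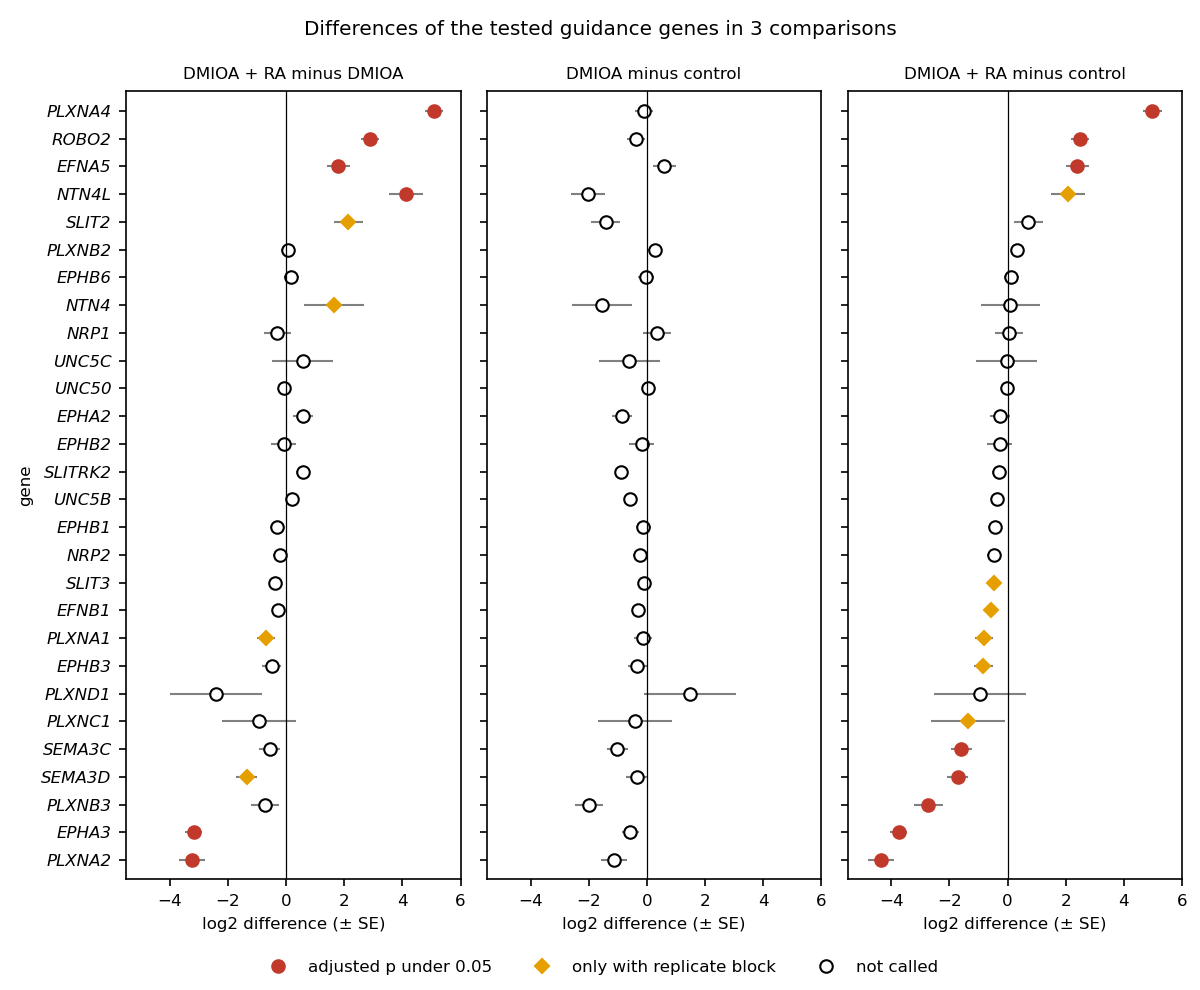
Log2 difference (± SE from limma) of the 28 tested genes for DMIOA plus retinoic acid minus DMIOA, DMIOA minus control, and DMIOA plus retinoic acid minus control. Filled circles mark genes with adjusted p under 0.05, diamonds those called with the replicate block alone, and open circles the rest; the middle panel holds open circles throughout.

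Among the semaphorins, the ligands SEMA3D and SEMA3C fell with retinoic acid against control. SEMA3D (gene ID 396332), a secreted class 3 semaphorin, had 10.03, 10.12 and 11.12 in DMIOA plus retinoic acid, 12.07, 11.14 and 12.15 in DMIOA, and 12.00, 12.18 and 12.24 in control. All retinoic acid arrays lay below all others, although the highest of them was within 0.1 of the lowest DMIOA array. SEMA3D was 3.29-fold lower than in control (log2 difference -1.72 ± 0.36 SE, adjusted p = 0.0199). Against DMIOA the difference was -1.36 (adjusted p = 0.0832), called with the replicate block (0.0286). Another SEMA3D probe set read -1.89 against control (adjusted p = 0.00705) and -1.35 against DMIOA (0.0503). The call against control was lost when control replicate 1 or 2 was left out (adjusted p = 0.0606 and 0.0765) or retinoic acid replicate 1 or 2 (0.0803 and 0.0808).

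SEMA3C (gene ID 374090), the cue secreted by fat cells in human, was likewise lowest with retinoic acid in replicates 1 and 2. It had 6.88, 6.83 and 8.22 in DMIOA plus retinoic acid, 8.18, 7.67 and 7.82 in DMIOA, and 8.85, 9.16 and 8.73 in control. Control arrays lay above all others, while the retinoic acid and DMIOA arrays overlapped through retinoic acid replicate 3. With retinoic acid SEMA3C was 3.03-fold lower than in control (-1.60 ± 0.36 SE, adjusted p = 0.0271). The differences were -0.57 for DMIOA plus retinoic acid against DMIOA (adjusted p = 0.506) and -1.02 for DMIOA against control (0.332). Without replicate 3 of every group SEMA3C was called against DMIOA (-1.06, adjusted p = 0.0364), but not with the replicate block as well (0.0656). Leaving out control replicate 1 or 2 (adjusted p = 0.0812 and 0.103) or retinoic acid replicate 1 or 2 (0.104 and 0.0998) ended the call against control. SEMA3F, a secreted ligand that prefers NRP2, was too dim to be tested: it had 5.64, 5.69 and 4.29 with retinoic acid, 3.36, 4.54 and 3.67 in DMIOA, and 2.56, 2.82 and 3.04 in control. Its retinoic acid arrays exceeded all control arrays, and it was called against control when all chicken probe sets were tested with no filter (adjusted p = 0.0199).

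The other 14 semaphorins were dim everywhere. The membrane-bound SEMA4B, SEMA6D and SEMA7A came closest to the threshold, with highest values of 4.58, 4.59 and 4.33. SEMA7A is the ligand of PLXNC1, and SEMA6D and SEMA6A are ligands of A-type plexins. SEMA6A stayed between 2.21 and 2.90 on all arrays.

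The neuropilins, the ligand-binding receptors of class 3 semaphorins, did not pass the test in any comparison. NRP1, also a co-receptor for VEGF, had 11.83, 11.89 and 13.22 in DMIOA plus retinoic acid, 12.04, 12.78 and 13.02 in DMIOA, and 11.78, 12.07 and 12.94 in control. Replicate 3 was the highest array of each group, and the groups overlapped throughout. NRP2 lay between 5.06 and 6.20.

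Plexins moved in both directions. PLXNA2 (gene ID 419857), a neuropilin-linked semaphorin receptor, had 5.05, 5.21 and 5.21 in DMIOA plus retinoic acid, 9.32, 7.53 and 8.30 in DMIOA, and 9.87, 9.81 and 8.84 in control. Every retinoic acid array sat just above 5 and more than 2 log2 units under every other array. PLXNA2 was 9.37-fold lower than in DMIOA (-3.23 ± 0.45 SE, adjusted p = 0.00862) and 20.4-fold lower than in control (-4.35 ± 0.45, adjusted p = 0.0015). Both of its other tested probe sets pointed the same way. They read -4.11 (adjusted p = 0.007) and -1.49 (0.141) against DMIOA, and -5.22 (0.00149) and -2.25 (0.0195) against control.

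PLXNA4 (gene ID 427941), a receptor that pairs with neuropilins and in mouse also binds class 6 semaphorins, was the reverse. It had 6.61, 6.62 and 7.68 in DMIOA plus retinoic acid, 1.55, 1.81 and 2.31 in DMIOA, and 2.09, 2.11 and 1.77 in control. It was above 5 only with retinoic acid, and the groups were far apart. Because the other groups were under 5, the fold is a bound that takes 5 in place of each dim value: PLXNA4 was at least 3.91-fold higher than in either group (log2 difference 5.08 ± 0.32 SE against DMIOA, adjusted p = 0.000181, and 4.98 against control, 0.000144). Its 4 other probe sets were below the filter, with differences of -0.16 to 2.83 against DMIOA.

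PLXNA1, the remaining A-type plexin measured, had 10.03, 10.01 and 9.67 in DMIOA plus retinoic acid, 10.90, 10.73 and 10.17 in DMIOA, and 11.15, 10.94 and 10.07 in control. Replicate 3 was the lowest in each group, and the retinoic acid arrays lay below all others. The differences were -0.70 against DMIOA (adjusted p = 0.317, with the replicate block 0.0339) and -0.82 against control (0.121, with the block 0.011). Another probe set of PLXNA1 was called without the block, at -1.11 against DMIOA (adjusted p = 0.0231) and -1.27 against control (0.00701).

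PLXNB3 (gene ID 100859325), a semaphorin receptor of the B type, had 2.88, 2.99 and 3.45 in DMIOA plus retinoic acid, 4.63, 3.07 and 3.81 in DMIOA, and 5.15, 5.56 and 6.77 in control. It was above 5 in control only. Against control it was at least 1.77-fold lower with retinoic acid (-2.72 ± 0.49 SE, adjusted p = 0.0124) and at least 1.77-fold lower with DMIOA alone, where the test was not passed (-1.99, adjusted p = 0.199). Leaving out retinoic acid replicate 1 or 2 ended the call with retinoic acid (adjusted p = 0.0571 and 0.0558). PLXNB2, a broadly expressed plexin, lay between 7.63 and 8.45 with no call. In the RefSeq order PLXNA1, NTN4L and PLXNB3 follow each other on chromosome 12, with 7 and 9 protein-coding genes between neighbours, and NTN4L read higher with retinoic acid while both plexins read lower.

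**Figure D3:**
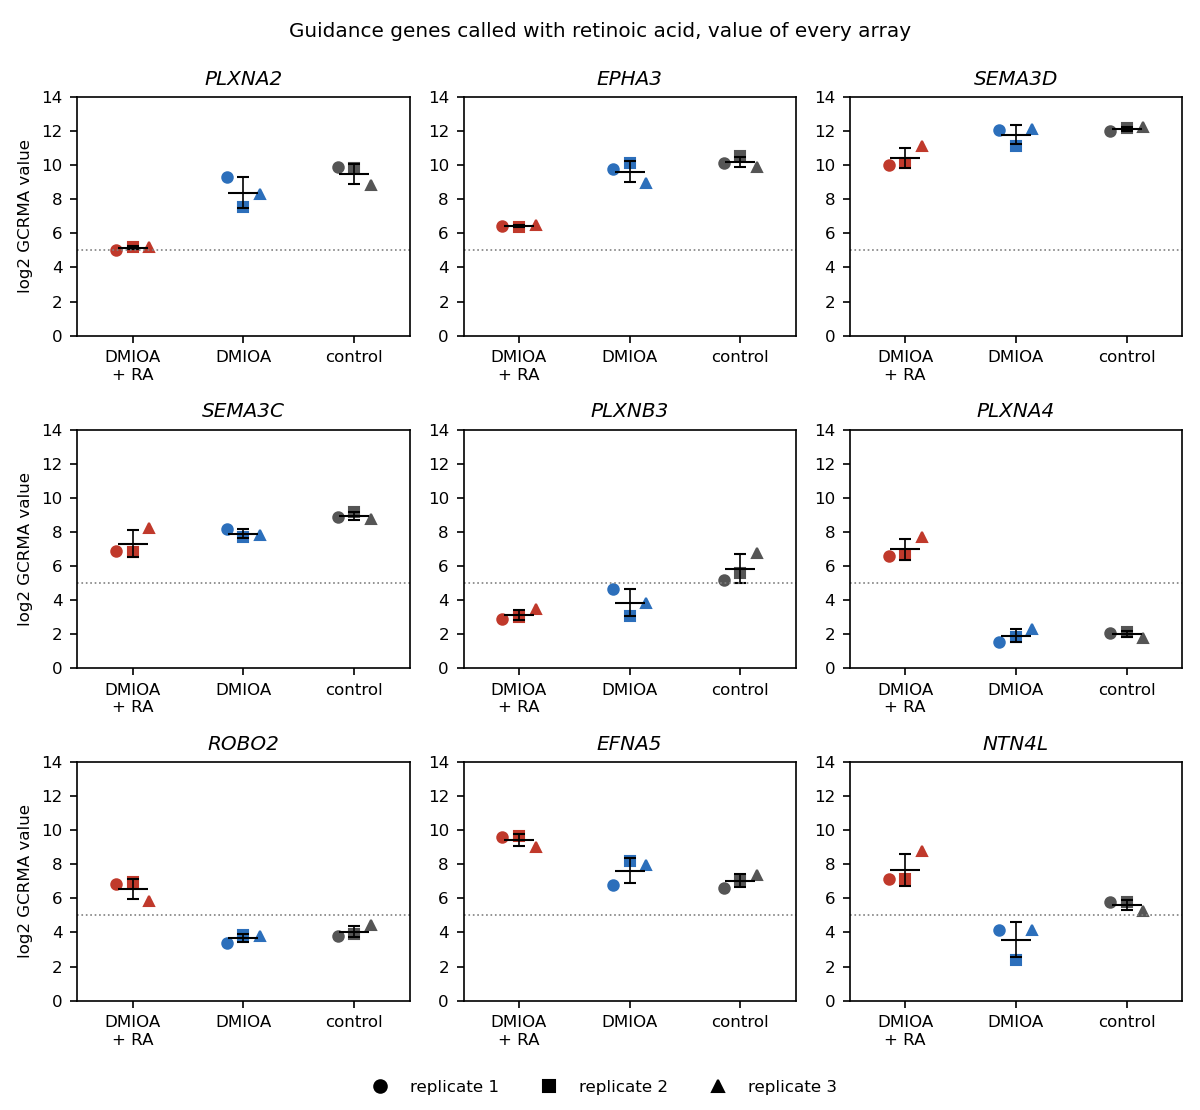
Log2 GCRMA value of every array for the 9 genes called in a retinoic acid comparison, with DMIOA plus retinoic acid, DMIOA and control from left to right, a marker shape per replicate number, group mean and SD as bars (n = 3), and the level of 5 as a dotted line. PLXNA4 and ROBO2 lie under the line outside retinoic acid, PLXNB3 lies above it in control only, and EPHA3 and PLXNA2 drop with retinoic acid on each array.

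PLXNC1 and PLXND1 varied widely within each group, with SDs of 1.74 to 1.82 and 2.06 to 2.34 (n = 3). PLXNC1, the SEMA7A receptor found on leukocytes among other cells, had 4.73, 5.09 and 8.02 in DMIOA plus retinoic acid, 6.59, 5.22 and 8.83 in DMIOA, and 6.58, 6.03 and 9.28 in control. Its replicate 3 was 3.10, 2.93 and 2.97 above the mean of replicates 1 and 2 in the same order of groups. The difference of -1.35 between DMIOA plus retinoic acid and control was not called (adjusted p = 0.526), but was with the replicate block (0.019). PLXND1, the SEMA3E receptor of vessels and macrophages, had 3.21, 2.71 and 6.81 with retinoic acid, 3.99, 7.72 and 8.30 in DMIOA, and 3.96, 4.07 and 7.57 in control. Replicate 3 was the highest in each group, and DMIOA replicate 2 was also high. Its difference of -2.42 between DMIOA plus retinoic acid and DMIOA had an SE of 1.58 and was not called with or without the block (adjusted p = 0.521 and 0.11).

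PLXNC1, PLXND1 and NTN4 were the 3 of 28 tested genes (10.7%) whose replicate 3 exceeded the mean of replicates 1 and 2 by at least 1 in all groups, against 2.42% of all tested probe sets. The macrophage and leukocyte list was also highest in replicate 3 of each group, but it was not raised in DMIOA replicate 2, where PLXND1 read 7.72. The summed log2 level of this list over 20 genes was 50.0, 50.6 and 105 in DMIOA plus retinoic acid, 52.1, 51.2 and 126 in DMIOA, and 57.2, 60.4 and 150 in control. CSF1R, the macrophage growth factor receptor gene, had 2.50, 2.33 and 8.95 with retinoic acid, 1.64, 1.57 and 9.42 in DMIOA, and 1.69, 2.37 and 9.60 in control, so it was at most 2.50 in replicates 1 and 2. The endothelial list summed to 37.4, 37.1 and 44.3 with retinoic acid, 45.5, 42.6 and 47.5 in DMIOA, and 45.4, 45.9 and 50.0 in control over 10 genes, lowest in retinoic acid replicates 1 and 2. Its 4 tested genes all read lower with retinoic acid, with median differences of -1.34 against DMIOA and -2.12 against control. In limma 0 and 2 of the 4 were called (3.89% and 13.2% of all probe sets), and 2 and 3 with the block (10.8% and 28.8%). The part of either cell type in the values of PLXNC1, PLXND1, NTN4 or any called gene was not tested.

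**Figure D4:**
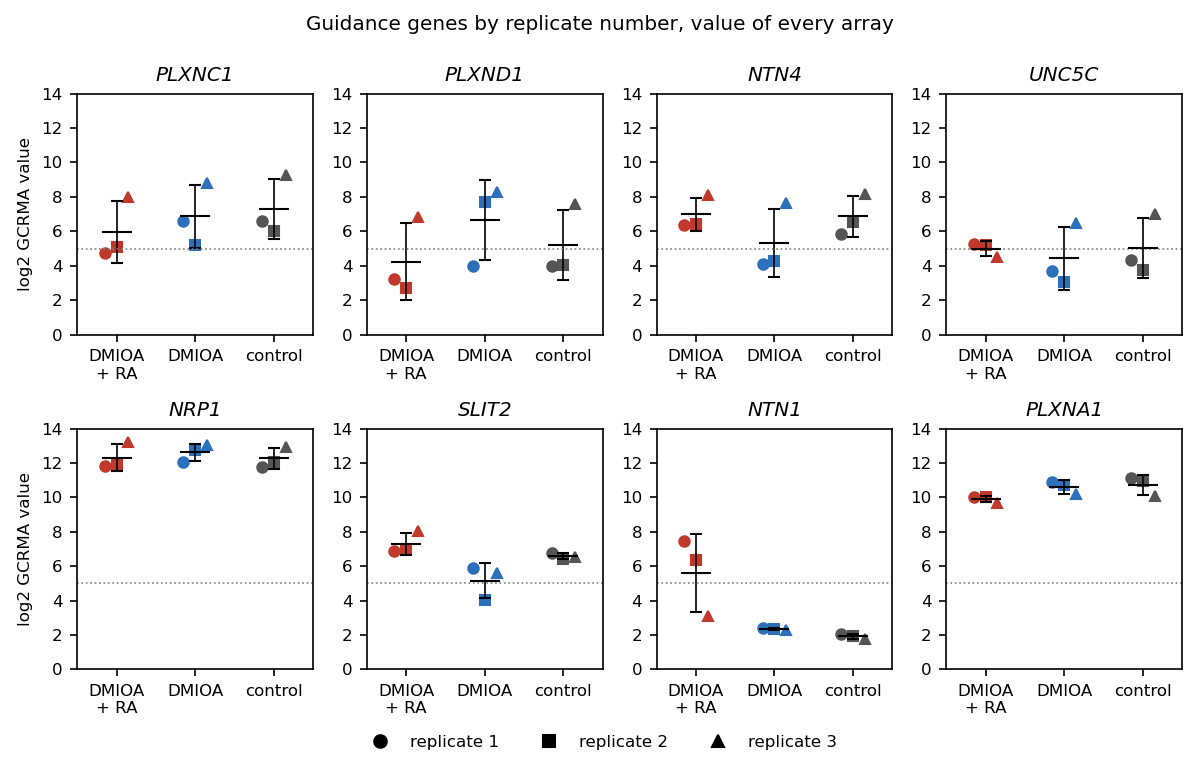
Log2 GCRMA value of every array for 8 guidance genes that differed by replicate number or were called only in some fits, with groups from DMIOA plus retinoic acid to control, marker shapes for replicates, bars for mean and SD (n = 3) and a dotted line at 5. Replicate 3 is the highest array in each group for PLXNC1, PLXND1, NTN4 and NRP1, while NTN1 is above 5 in retinoic acid replicates 1 and 2 alone.

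Among the ephrins, EFNA5 (gene ID 396100) rose with retinoic acid. It is the ephrin-A5 ligand that sorts retinal axons in the chick midbrain. EFNA5 had 9.62, 9.66 and 9.02 in DMIOA plus retinoic acid, 6.78, 8.18 and 7.94 in DMIOA, and 6.63, 7.08 and 7.40 in control. Each retinoic acid array was above all others, and DMIOA and control overlapped. EFNA5 was 5.28-fold higher than in control (2.40 ± 0.39 SE, adjusted p = 0.00777) and 3.49-fold higher than in DMIOA (1.80 ± 0.39, adjusted p = 0.0453). The call against DMIOA was close to the threshold: it was kept without DMIOA replicate 2 or retinoic acid replicate 3, and lost without control replicate 1, 2 or 3 (adjusted p = 0.0678, 0.0874 and 0.0522), DMIOA replicate 1 or 3 (0.0617 and 0.0727) or retinoic acid replicate 1 or 2 (0.177 and 0.178). Its 4 other probe sets did not pass the filter and differed by -0.12 to 1.11 against DMIOA.

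EFNB1, a transmembrane ephrin, had 8.13, 8.06 and 8.14 in DMIOA plus retinoic acid, 8.69, 8.33 and 8.12 in DMIOA, and 8.65, 8.96 and 8.47 in control. Retinoic acid arrays were all below control arrays. Its difference from control, -0.58, was called with the replicate block (adjusted p = 0.0409) and not without (0.0711), while another of its probe sets was called without it (-0.68, adjusted p = 0.0339). The remaining tested EFNB1 probe set read -0.79 and was called with the block (adjusted p = 0.014) and not without (0.0883). EFNA2 and EFNB2 stayed under 5 on all arrays, at most at 3.05 and 2.37.

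EPHA3 (gene ID 396402), an Eph receptor to which ephrin-A5 binds with high affinity, fell with retinoic acid while that ligand gene rose. It had 6.43, 6.37 and 6.51 in DMIOA plus retinoic acid, 9.78, 10.12 and 8.94 in DMIOA, and 10.12, 10.52 and 9.91 in control. The retinoic acid arrays agreed within 0.2 and lay more than 2 log2 units below every other array. EPHA3 was 9.04-fold lower than in DMIOA (-3.18 ± 0.29 SE, adjusted p = 0.0013) and 13.4-fold lower than in control (-3.75 ± 0.29, adjusted p = 0.000435). Its second probe set was below the filter and read -1.29 and -1.60 in the same comparisons.

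EPHB3, a receptor for B-type ephrins, had 7.54, 7.59 and 7.01 in DMIOA plus retinoic acid, 8.37, 7.90 and 7.37 in DMIOA, and 8.54, 8.47 and 7.63 in control. Within each group replicate 3 was the lowest, and the retinoic acid arrays lay below the control arrays. Its difference from control (-0.83, adjusted p = 0.138) was called with the block (0.00794). The other tested Eph receptors, EPHA2, EPHB1, EPHB2 and EPHB6, differed by -0.85 to 0.58 over the 3 comparisons and had 0 calls in limma, with 1 unadjusted p under 0.05 (EPHA2, lower in DMIOA than in control). EPHB6 lacks kinase activity. The 6 Eph receptors that never reached 5 were EPHA1, EPHA4, EPHA5, EPHA6, EPHA7 and EPHA10; EPHA4, which binds ephrins of both classes, came nearest with 4.90. EPHA4 had 3.11, 3.69 and 2.98 with retinoic acid, 4.71, 4.26 and 4.36 in DMIOA, and 4.30, 4.90 and 4.37 in control. Its retinoic acid arrays lay below the rest, and with no filter it was called against control (-1.26, adjusted p = 0.0246), which has no fold because all values were under 5.

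Of the netrins, NTN4L (gene ID 416036), named by its symbol as similar to NTN4, rose with retinoic acid against DMIOA. NTN4L had 7.16, 7.11 and 8.78 in DMIOA plus retinoic acid, 4.16, 2.38 and 4.15 in DMIOA, and 5.77, 5.77 and 5.25 in control. The 3 groups did not overlap, with DMIOA the lowest. NTN4L was at least 6.43-fold higher with retinoic acid than in DMIOA (4.12 ± 0.59 SE, adjusted p = 0.00978). Against control the difference was 2.09 (adjusted p = 0.0559, with the block 0.0307), and DMIOA against control gave -2.03 (0.259). The other NTN4L probe set was called in both retinoic acid comparisons, at 3.08 (adjusted p = 0.00686) and 1.99 (0.0175).

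NTN4, a netrin of basement membranes, ran in the same order of group means but with replicate 3 apart. It had 6.39, 6.45 and 8.09 in DMIOA plus retinoic acid, 4.10, 4.29 and 7.62 in DMIOA, and 5.87, 6.55 and 8.19 in control. Within each replicate number the DMIOA array was the lowest of the 3. The difference between DMIOA plus retinoic acid and DMIOA was 1.64 (adjusted p = 0.502), called with the replicate block (0.0424). A second tested NTN4 probe set read 0.91 and was not called without the block (adjusted p = 0.724) or with it (0.0598). In that probe set the retinoic acid mean was below the control mean (-0.18). When replicate 3 of every group was left out, NTN4 was called higher with retinoic acid than with DMIOA (2.23, adjusted p = 0.00898) and lower in DMIOA than in control (-2.02, 0.0462); the call against control was lost with the replicate block (0.0787). NTN1, the founding netrin of the spinal cord midline, was not tested: it had 7.44, 6.34 and 3.09 in DMIOA plus retinoic acid, 2.40, 2.32 and 2.27 in DMIOA, and 2.05, 1.93 and 1.79 in control. All retinoic acid arrays exceeded the rest, but replicate 3 was itself under 5. With no filter its adjusted p was 0.196 against DMIOA and 0.0676 against control. NTN3, NTNG1 and NTNG2 were at most 3.11, and with no filter NTNG1 was called higher with retinoic acid than in control (1.00, adjusted p = 0.0264). This has no fold because all values were under 5, and the other NTNG1 probe sets read 0.21 and 0.03 against control.

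UNC5 receptors, which mediate repulsion by netrins, had 0 calls in the limma fit to all arrays, with an unadjusted p under 0.05 for 1 of them, UNC5B in DMIOA against control. UNC5B, a netrin receptor also known from vessels, had 9.41, 9.45 and 9.97 in DMIOA plus retinoic acid, 9.44, 9.39 and 9.43 in DMIOA, and 9.92, 10.19 and 9.85 in control. DMIOA arrays lay below control arrays by less than 1 log2 unit (-0.57, adjusted p = 0.269). Without replicate 3 of every group UNC5B was called lower with retinoic acid than in control (-0.63, adjusted p = 0.0222), where the fit to all arrays gave -0.38 (0.187). UNC5C had 5.29, 5.20 and 4.50 with retinoic acid, 3.70, 3.08 and 6.51 in DMIOA, and 4.32, 3.78 and 6.99 in control. Its replicate 3 was high in DMIOA and control and low with retinoic acid. Without replicate 3 of every group UNC5C was higher with retinoic acid than in DMIOA (1.85, adjusted p = 0.0183) and control (1.19, 0.0314), where the fit to all arrays gave 0.57 and -0.03. In the fit without replicate 3 only retinoic acid arrays reached 5, and UNC5C was tested because the filter used all 9 arrays. No conclusion is drawn from these 2 p-values. UNC5D was at most 1.69.

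Slits and robos form a ligand and receptor pair. SLIT2 had 6.91, 6.94 and 8.05 in DMIOA plus retinoic acid, 5.88, 4.03 and 5.59 in DMIOA, and 6.77, 6.44 and 6.53 in control. The retinoic acid arrays lay above all DMIOA arrays and, narrowly, above the control arrays. SLIT2 was at least 3.50-fold higher with retinoic acid than in DMIOA by its fold bound, with a difference of 2.13 that was called with the replicate block (adjusted p = 0.0238) and not without (0.0617). SLIT3, which is expressed in many mesenchymal cells, had 9.99, 9.76 and 10.15 with retinoic acid, 10.14, 10.32 and 10.63 in DMIOA, and 10.30, 10.24 and 10.81 in control. Its retinoic acid arrays were all below its control arrays, and the difference of -0.48 was called with the block (adjusted p = 0.0276) and not without (0.158). The second tested SLIT3 probe set read -0.28 against control, with overlapping arrays. It was not called with the block (adjusted p = 0.138) or without (0.559). SLIT1 was at most 2.80.

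ROBO2 (gene ID 395291), a slit receptor, was above 5 with retinoic acid only. It had 6.87, 6.94 and 5.86 in DMIOA plus retinoic acid, 3.38, 3.83 and 3.81 in DMIOA, and 3.81, 3.91 and 4.44 in control. DMIOA and control overlapped, and all retinoic acid arrays were higher. By the bound ROBO2 was at least 2.94-fold higher with retinoic acid than in either other group (2.89 ± 0.31 SE against DMIOA, adjusted p = 0.00336, and 2.50 against control, 0.00307). Its 4 other probe sets were below the filter and differed by -0.08 to 2.25 against DMIOA. ROBO1, its neighbour on chromosome 1 with 1 protein-coding gene between them, had 5.93, 5.70 and 4.76 with retinoic acid, 4.97, 4.64 and 4.21 in DMIOA, and 4.99, 4.97 and 3.74 in control. In ROBO1 the groups overlapped through replicate 3, and it was not tested. ROBO4, the robo of endothelial cells in mammals, was between 1.13 and 1.38.

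Of the genes that share only letters with the families, SLITRK2, a neuronal membrane protein gene, had 6.27 on each of the 3 retinoic acid arrays, 5.64, 6.19 and 5.28 in DMIOA, and 6.36, 6.81 and 6.58 in control. DMIOA was the lowest group without overlap (-0.88 against control, adjusted p = 0.214). UNC50 lay between 9.99 and 10.42, and SLITRK1, SLITRK4 and SLITRK6 were at most 2.29.

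Partners and co-receptors of the families were read from a list of 38 genes, of which 35 were on the array and 17 tested. VEGFD, a lymphatic growth factor, was the single call for retinoic acid against DMIOA (5.88% of the list, against 3.89% of all probe sets). It had 5.42, 5.21 and 5.41 with retinoic acid, 1.97, 2.54 and 1.73 in DMIOA, and 1.92, 1.65 and 1.96 in control, which is at least 1.27-fold higher (3.26, adjusted p = 0.000197). VEGFD passed the filter only through the retinoic acid arrays. Without it 0 of 16 were called in limma against DMIOA, with 6 at an unadjusted p under 0.05 (16.2% of all probe sets were). Against control 2 of 16 were called without VEGFD. With it, 3 of 17 were called against control (17.6%, against 13.2% of all probe sets): VEGFD rose, while LINGO1 (-3.33, adjusted p = 0.00211), a component of the Nogo receptor complex, and the proteoglycan gene GPC1 (-1.81, 0.0291), whose product binds slits, fell. With the replicate block 5 were higher and 2 lower against DMIOA, and 3 higher and 4 lower against control (41.2% each, against 10.8% and 28.8% of all probe sets). Median differences of the list were 0.16 against DMIOA and -0.16 against control.

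The intracellular effectors, the enzymes and adaptors that carry guidance signals to the cytoskeleton, were called mostly against control. Of 86 listed genes 73 were on the array and 45 were tested. Against DMIOA, MRAS (-1.05, adjusted p = 0.0496) and the kinase gene FYN (-0.44, 0.0496) fell, which is 4.44% of the list and close to the 3.89% of all probe sets; with the replicate block 4 were higher and 4 lower (17.8%, against 10.8%). Against control 2 rose and 8 fell (22.2%, against 13.2% of all probe sets), and with the block 3 were higher and 15 lower (40.0%, against 28.8%). DOCK1 (0.81, adjusted p = 0.0216), an exchange factor for RAC1, and FARP1 (1.27, 0.0313), an exchange factor linked to plexin signalling, were higher. FYN (-0.79, 0.00295), MRAS (-1.75, 0.00359), DPYSL2 (-1.38, 0.0114), the semaphorin response gene also called CRMP2, and ELMO1 (-2.16, 0.0141), the DOCK1 partner, had the smallest adjusted p-values of those that fell, followed by TIAM2 and LIMK2 (0.0349 and 0.0383). The other genes that fell were RRAS and VAV3 (0.0403 and 0.0412). In DPYSL2 the retinoic acid arrays read 7.61, 7.91 and 8.58, against 9.51, 9.26 and 9.46 in control, with no overlap. DMIOA against control called 0 of 45 effectors and 0 of 17 partners in limma, where 8 and 3 had an unadjusted p under 0.05 (11.6% of all probe sets did). With the block this comparison called DOCK1 (higher), KALRN and the partner PLXDC1 (lower). These are 4.44% of the effectors and 5.88% of the partners, against 1.29% of all probe sets. The median effector difference was -0.08 against DMIOA, -0.13 for DMIOA against control and -0.20 for retinoic acid against control.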

How the data were processed

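Expression was measured on 9 single-colour Affymetrix chicken arrays with 38535 probe sets, 37693 of them chicken. The deposited values are log2 expression values that the authors made; per the submitters' processing notes the tool was GCRMA, with no version stated there. GCRMA corrects background by probe sequence and normalizes between arrays, and low values have no detection call here. Names came from the platform annotation (27166 chicken probe sets with 1 symbol, 177 with several, 10350 with none), and 60 of the 62 gene IDs were found in the RefSeq table. The genes had 159 probe sets, and 40 had more than 1.

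Probe sets at 5 or above on at least 3 arrays (12329) were fitted in limma 3.58.1 (R 4.3.3; lmFit, eBayes) with a mean per group over all 9 arrays, which leaves 6 residual degrees of freedom (4 with the block). P-values were adjusted over all of them by the Benjamini-Hochberg method. Folds take 5 in place of lower values in the dimmer group ("at least"). Scripts were tested on simulated data.

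Replicate numbers were used as a block: over 9 same-numbered pairs from different groups, deviations from group means correlated at 0.375 to 0.857, each above 0.1. Pairs of a replicate 1 with a replicate 2 from different groups also correlated, at 0.321 to 0.668. All pairs of replicate 3 with replicate 1 or 2 correlated negatively. This sign is in part built in, because deviations from a group mean cancel out within the group. The check therefore sets replicate 3 apart but cannot show that replicates 1 and 2 are matched by number. Blocked values stand beside the guidance genes whose call they change, and as counts for the partner and effector lists. Every array value is given for guidance genes called in either fit, and for genes whose group means differ by at least 1 with a mean of at least 5 in one of the groups; other array values were chosen after they were seen. The genes and lists were chosen with earlier results of these data known. Alternatives covered the filter, centring, cyclic loess, the prior, array weights, the groups entered, the probe sets averaged, a 2-fold threshold, and arrays left out.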

Additional observations from a re-analysis of the deposited data

How the results depend on the processing

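Of 14 calls of a gene in a retinoic acid comparison, 0 changed direction under any alternative run. EPHA3 and PLXNA2 in both comparisons and EFNA5 against control kept their calls in all of them, as did PLXNA4 and ROBO2 in all but the stricter filter of 7, under which they were not tested. The filter over all 9 arrays was kept when arrays were left out, and PLXNA4 and ROBO2 passed it only through retinoic acid. Their kept calls in those fits are therefore no separate support. EFNA5 against DMIOA also lost its call with no filter (adjusted p = 0.0785), cyclic loess (0.0553) and only the 2 groups compared (0.107); with only the 2 groups NTN4L against DMIOA (0.0509) and SEMA3C against control (0.0549) lost theirs. The count for DMIOA plus retinoic acid against DMIOA, 6, became 10 with the replicate block and 11 without replicate 3 of every group (12.3% of all probe sets), and 4 with the stricter filter or with only the 2 groups compared. Leaving out 1 array gave 5 to 8, and 5 to 11 with the block. No shares of all probe sets are given for the stricter filter, only the 2 groups compared, or 1 array left out. Counts under those settings, here and for the other comparisons, cannot be read as an excess. For DMIOA against control, 0 became 1 with array weights (2.18% of all probe sets) and 1 without replicate 3 of every group (1.4%). Leaving out 1 array gave 0 to 0, and 0 to 1 with the block. For DMIOA plus retinoic acid against control, 8 became 14 with the block, 5 with the stricter filter, which left fewer genes tested, 13 without replicate 3 of every group (29.4%) and 21 with array weights (67.5%). Leaving out 1 array gave 5 to 9, the 5 without retinoic acid replicate 1 or 2, and 8 to 15 with the block. The causes of these shifts were not tested. Apart from the calls given, the replicate block changed no other call of a guidance gene. Having 3 arrays in a group and dim values limit precision: 34 of the 62 genes were not tested.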
